A study of Mus musculus with 131 samples.

Results

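The 6 genes Glul, Oat, Slc1a2, Rhbg, Lect2 and Gulo were followed in mouse hepatocytes through postnatal life and after deletion of Tet2 and Tet3. They were taken by name from an expression table of 24397 genes, and each name occurred in 1 row. The 6 were selected on their RNA-Seq expression in these same libraries, so their expression values are given below as a description and without a test. Methylation and peaks were not used for the choice. All mice were C57Bl. WT hepatocytes came from uninjected animals at 1 week (1 library), 3 weeks (3 libraries) and 15 weeks (3 libraries). The double knockout (DKO) was made in Tet2F/Tet3F mice by AAV8 carrying Cre under the Tbg promoter, which acts in hepatocytes, so other liver cells keep both genes. The virus was given at 1 day (3 libraries) or at 3 weeks (2 libraries), and the mice were studied at 15 weeks. Controls were WT mice that received the virus at 1 day (3 libraries) or 3 weeks (3 libraries) and were also studied at 15 weeks, so every injected animal carried Cre. Methylation was measured by reduced representation bisulfite sequencing (RRBS) in 12 mice of 5 of these conditions, and by whole genome bisulfite sequencing (WGBS) in 1 newborn (1 week), 1 adult WT and 1 adult DKO (1 day) library. Peaks came from ATAC-Seq, labelled as liver with a protocol that names hepatocytes, from HNF6 ChIP-Seq, labelled as liver, and from H3K27ac, H3K4me1 and 5hmC of hepatocytes. The histone libraries were of 15 weeks, with the DKO injected at 1 day. For ATAC-Seq, HNF6 and 5hmC the labels give no age. The paper states adult hepatocytes of 15 weeks with the DKO of 1 day for ATAC-Seq, and mice of about 3 weeks for 5hmC. RRBS values outside the comparisons came from WT fat (25 weeks), WT neutrophils (36 weeks) and 2 cultures of newborn hepatocytes, labelled 1 week. They also came from 2 hepatocyte samples with insulin receptor knockout. The paper states virus injection right after birth for these, and their labels give no age.

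The liver lobule is zoned. Periportal hepatocytes make urea from ammonia, and a thin layer of perivenous hepatocytes around the central vein captures the ammonia that escapes and turns it into glutamine. Wnt signals from the central vein maintain this perivenous programme, and Glul is its best known target. Glul encodes glutamine synthetase. Oat encodes ornithine aminotransferase, a mitochondrial enzyme that makes glutamate semialdehyde from ornithine. Slc1a2 encodes a glutamate transporter of the cell membrane, and Rhbg an ammonium transporter. Lect2 encodes a secreted hepatocyte protein and is known as a Wnt target in liver. Gulo encodes gulonolactone oxidase, the last enzyme of ascorbate synthesis, so it does not itself act on glutamine or ammonia. The libraries hold sorted hepatocytes without their place in the lobule. In such bulk samples, fewer cells that express a gene and less RNA per cell cannot be told apart.

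The DNA that lost methylation around these genes is shown first, in mm9 coordinates on the + strand, with each CG in capitals because CG is the dinucleotide whose methylation was read. For each gene with a tile of 200 bases that lost methylation, the one whose WGBS level dropped most after birth is given, and for Glul also the adjoining tile, which RRBS covered as well.
Glul chr1:155757001-155757200: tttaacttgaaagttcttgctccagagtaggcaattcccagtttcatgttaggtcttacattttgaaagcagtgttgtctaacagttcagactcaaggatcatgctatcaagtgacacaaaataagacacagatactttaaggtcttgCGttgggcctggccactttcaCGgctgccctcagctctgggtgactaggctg
Glul chr1:155757201-155757400: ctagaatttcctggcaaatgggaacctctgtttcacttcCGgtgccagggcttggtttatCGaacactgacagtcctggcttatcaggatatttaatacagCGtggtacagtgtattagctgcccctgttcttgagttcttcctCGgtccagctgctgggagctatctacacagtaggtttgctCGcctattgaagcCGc
Oat chr7:139763201-139763400: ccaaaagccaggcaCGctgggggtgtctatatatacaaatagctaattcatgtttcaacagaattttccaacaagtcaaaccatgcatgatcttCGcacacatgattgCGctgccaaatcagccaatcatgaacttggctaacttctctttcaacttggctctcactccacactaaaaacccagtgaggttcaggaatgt
Slc1a2 chr2:102597601-102597800: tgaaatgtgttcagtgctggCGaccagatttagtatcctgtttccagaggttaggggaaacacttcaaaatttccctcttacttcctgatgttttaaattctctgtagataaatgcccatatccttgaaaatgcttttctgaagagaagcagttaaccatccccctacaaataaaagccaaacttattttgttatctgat
Lect2 chr13:56652401-56652600: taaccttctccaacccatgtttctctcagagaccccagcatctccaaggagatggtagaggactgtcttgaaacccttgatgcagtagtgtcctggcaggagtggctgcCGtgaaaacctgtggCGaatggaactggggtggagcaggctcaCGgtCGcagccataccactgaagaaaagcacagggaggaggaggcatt
Gulo chr14:66601401-66601600: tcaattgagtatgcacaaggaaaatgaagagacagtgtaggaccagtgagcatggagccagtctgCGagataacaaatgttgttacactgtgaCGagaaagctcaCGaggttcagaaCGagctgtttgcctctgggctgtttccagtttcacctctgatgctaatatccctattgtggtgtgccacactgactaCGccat
They held between 1 and 6 CG. The Glul pair began 148 bases behind the end of the gene, inside the annotated spans of A930039A15Rik and Gm11074. The Oat and Slc1a2 tiles were intronic. The Lect2 tile lay 2502 bases upstream of the gene and the Gulo tile 4024 bases downstream.

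A further stretch of 300 bases in an intron of Gulo is given, and an ATAC-Seq peak of the WT libraries lay in it. Its 3 RRBS tiles rose most after deletion at 1 day among the tiles called with values in all 12 mice.
Gulo chr14:66623701-66624000: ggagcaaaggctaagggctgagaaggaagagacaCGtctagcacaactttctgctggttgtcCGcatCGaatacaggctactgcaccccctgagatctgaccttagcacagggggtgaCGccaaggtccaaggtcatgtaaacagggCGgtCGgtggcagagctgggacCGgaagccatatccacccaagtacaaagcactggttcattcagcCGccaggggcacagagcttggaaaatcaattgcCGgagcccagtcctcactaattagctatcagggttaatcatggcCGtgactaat
It held 10 CG. The letters CTTTGA (core of TCF/LEF sites) and ATCAAT (core of HNF6 sites) were searched on both strands. Neither was found in the 6 tiles of 200 bases, and 14.8% and 9.33% of all 8049849 WGBS tiles held them. The Gulo intron held 1 ATCAAT and no CTTTGA, and 15.1% and 22.3% of all genome windows of 300 bases held these letters.

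Promoters were taken from RefSeq in build GRCm38.p6, from 250 bases before to 50 bases after the start, and were matched for 4 of the 6 genes (Glul, Oat, Slc1a2 and Lect2). Searched as letters in mm9, the starts of Glul, Oat and Lect2 were 0 bases from the gene start of the expression table. That of Slc1a2 lay 47755 bases inside the gene, so it belongs to another start and was left out. The promoter of Lect2 is given, in the direction of transcription, because of the 3 it alone held a searched motif, whose letters are in capitals.
Lect2 chr13:56548489-56548788: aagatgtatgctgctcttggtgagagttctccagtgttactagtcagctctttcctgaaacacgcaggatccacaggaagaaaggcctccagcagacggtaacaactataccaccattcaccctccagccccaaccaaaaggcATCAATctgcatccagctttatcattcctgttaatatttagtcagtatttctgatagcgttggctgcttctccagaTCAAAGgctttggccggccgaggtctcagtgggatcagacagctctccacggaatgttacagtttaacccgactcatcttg
It held CTTTGA at position -31 from the start and ATCAAT at -107, on 1 strand or the other. The Glul and Oat promoters held 17 and 22 CG, against 7 in Lect2. Of 32851 promoters of the same length, 16.0% held CTTTGA and 7.54% ATCAAT. The motifs do not overlap each other here, and a match is a match of letters only.

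Before the genes are described, the libraries need a few words. The 6 hepatocyte markers summed to 8451 FPKM or more in every library (fragments per kilobase of transcript, scaled to the size of the library), and the leukocyte, endothelial and stellate markers summed to 62.4 FPKM or less. The WT 1 week library differed, with 1687 FPKM of erythroid markers against 5.38 to 70.7 elsewhere and 121 FPKM of cholangiocyte markers against 5.24 to 21.2. Tet2 and Tet3 were not lower in the DKO libraries injected at 1 day (Tet2 3.35 ± 0.65 FPKM, SD, n = 3, against 1.55 ± 0.63 in controls), but FPKM sums reads over the whole gene and cannot check a deleted exon. In DKO injected at 3 weeks, Tet2 was at 1.33 and Tet3 at 1.61 FPKM, against 2.54 and 2.63 in controls. Library C of the controls injected at 3 weeks and the 3 WT 3 week libraries were rich in Xist (48.0 to 88.1 FPKM) with Y genes at 0.0741 FPKM or less, and every other library had the opposite pattern. Age and sex therefore cannot be told apart between 3 and 15 weeks, and control library C differs from all other adult libraries in sex. Labels name the libraries of a condition as separate samples but not as separate cultures or litters, so p-values measure the spread between these samples.

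Glul (mm9 chr1:155747059-155756853, + strand) showed strong expression in all 9 adult control libraries and little in DKO. Its level was 136 FPKM at 1 week. The WT 3 week libraries gave 27.6, 35.8 and 46.4 FPKM, and the 15 week libraries 102, 181 and 119 FPKM, so the ages did not overlap. Controls injected at 1 day gave 186, 76.7 and 184 FPKM. DKO injected at 1 day gave 9.76, 11.8 and 11.6 FPKM, all far under the controls. The mean was 13.5-fold lower, with a log2 difference of -3.53 ± 0.57 (SE). All log2 values here are differences of log2(FPKM + 1), which understates changes of low genes. For injection at 3 weeks the controls gave 89.0, 103 and 606 FPKM and the DKO 29.9 and 33.3 FPKM, a log2 difference of -2.46 ± 0.63. The 3 week DKO thus stood between the 1 day DKO and the controls. Without control library C this difference was -1.57 ± 0.38. Reads over part of Glul can also belong to 5830403L16Rik, A930039A15Rik and Gm11074, which overlap it, because the libraries did not keep the strand.

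Oat (chr7:139749158-139768081, - strand) differed more than Glul between 3 and 15 weeks, ages that here also differ in sex. It was at 17.7 FPKM at 1 week. At 3 weeks the libraries gave 43.9, 29.8 and 56.9 FPKM, and at 15 weeks 396, 444 and 298 FPKM, a log2 difference of 3.12 ± 0.42 or 8.71-fold. In controls injected at 1 day the values were 264, 126 and 288 FPKM and in the DKO 11.1, 13.7 and 14.9 FPKM. These DKO libraries were thus under all WT libraries, those of 3 weeks and 1 week included. The deletion at 1 day gave 17.1-fold lower means and -3.91 ± 0.42 on the log2 scale. Controls injected at 3 weeks had 187, 220 and 660 FPKM and the DKO 76.3 and 74.9 FPKM. The log2 difference was -1.98 ± 0.47, and -1.41 ± 0.36 without control library C. The whole gene lies inside the annotated span of Fgfr2 on the same strand.

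Slc1a2 (chr2:102498840-102630941, + strand) was the lowest of the glutamate genes and showed the largest ratio after deletion at 1 day. At 1 week it was at 0.437 FPKM. The 3 week libraries had 2.27, 2.99 and 6.16 FPKM and the 15 week libraries 22.0, 32.3 and 26.1 FPKM, 7.05-fold more (2.60 ± 0.52 on the log2 scale). Controls injected at 1 day gave 30.7, 13.6 and 27.4 FPKM. The DKO gave 1.15, 1.76 and 0.786 FPKM, a mean 19.4-fold lower and a log2 difference of -3.42 ± 0.52. They again lay under every WT library of 3 weeks and above the single library of 1 week. After injection at 3 weeks the DKO held 6.81 and 7.52 FPKM against 13.2, 18.9 and 80.6 FPKM, a difference of -1.80 ± 0.58, or -1.04 ± 0.39 without control library C. An antisense transcript, Gm13872, overlaps Slc1a2.

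Rhbg (chr3:88046796-88058606, - strand) had the lowest FPKM of the 6 genes in each of the 9 adult libraries without deletion, and its levels overlapped between 3 and 15 weeks. The 1 week library held 19.7 FPKM, the highest of all 18. The WT libraries of 3 weeks gave 2.08, 3.08 and 4.86 FPKM and those of 15 weeks 3.06, 5.94 and 3.10 FPKM, with a log2 difference of 0.22 ± 0.44 that turned negative in 2 of 9 alternatives. Controls injected at 1 day gave 5.54, 2.66 and 4.87 FPKM and the DKO 1.18, 2.15 and 0.537 FPKM. The groups did not overlap, but the nearest libraries were close, and the difference was -1.25 ± 0.44. After injection at 3 weeks the DKO held 1.75 and 1.86 FPKM and the controls 3.23, 3.44 and 14.2 FPKM (-1.23 ± 0.50, or -0.63 ± 0.38 without control library C). The annotation extends Rhbg upstream to position 88091132. Its start and window below follow the expression table and leave out part of that span.

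Lect2 (chr13:56643821-56649899, - strand) was lower, not higher, in the older WT libraries. It was at 159 FPKM at 1 week. The 3 week libraries gave 121, 77.2 and 122 FPKM and the 15 week libraries 72.2, 76.7 and 60.9 FPKM. These ranges nearly met, and the log2 difference was -0.58 ± 0.33. The DKO injected at 1 day had 6.70, 13.4 and 5.46 FPKM against 52.1, 34.5 and 59.9 FPKM in controls (-2.44 ± 0.33, 5.73-fold lower). After injection at 3 weeks it had 38.1 and 49.1 FPKM against 53.1, 50.9 and 105 FPKM. The gap between the groups was small there, and the log2 difference was -0.59 ± 0.37. Without control library C it was -0.26 ± 0.35, less than its SE.

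Gulo (chr14:66605624-66628047, - strand) had overlapping levels at 3 and 15 weeks. It was at 214 FPKM at 1 week, at 229, 159 and 259 FPKM at 3 weeks and at 184, 267 and 239 FPKM at 15 weeks, a log2 difference of 0.11 ± 0.30. This difference turned negative in 3 of 9 alternatives, to -0.13 when libraries were scaled by their median ratio. Controls injected at 1 day had 156, 101 and 147 FPKM. The DKO had 34.4, 39.2 and 19.2 FPKM, 4.36-fold less (-2.12 ± 0.30). After injection at 3 weeks the DKO had 88.6 and 99.9 FPKM against 140, 149 and 277 FPKM, a difference of -0.92 ± 0.34, or -0.61 ± 0.32 without control library C. The 3 week DKO thus lay between the 1 day DKO and the controls.

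**Figure D1:**
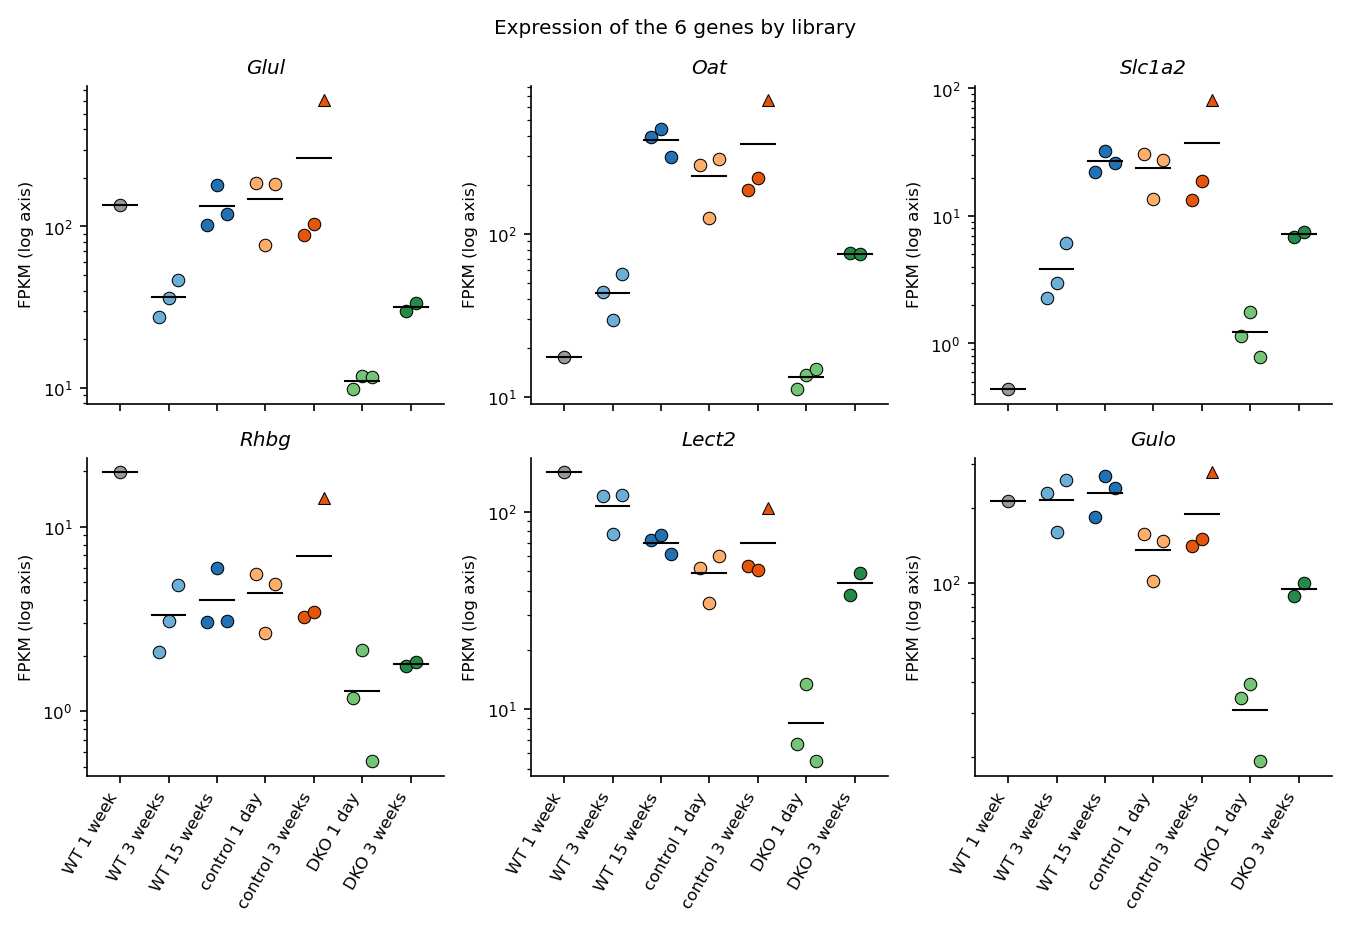
FPKM on log axes for the 6 genes, 1 point per library and a line at the mean of each condition, with control library C of the 3 week injection as a triangle. The 3 libraries of DKO injected at 1 day lie under all injected controls for each gene, and only Oat, Slc1a2 and Glul lie higher in all 15 week than in all 3 week WT libraries.

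The 6 genes differed in their course between 3 and 15 weeks, where sex differs too, but had the same direction after deletion. For the 3 glutamate and glutamine genes Glul, Oat and Slc1a2, all WT 15 week libraries were above all 3 week libraries, and over all 11166 genes tested 24% passed the test as higher and 9.32% as lower (limma, adjusted p under 0.05). Rhbg and Gulo overlapped between the ages, and Lect2 was lower in all 15 week libraries. After deletion at 1 day each of the 6 genes was lower in every DKO library than in every control. By the limma rule 15.6% of all genes were lower there and 4.33% higher. After deletion at 3 weeks the groups again did not overlap for any of the 6, and over all genes 4.34% were lower and 0.905% higher. Passing limma is another measure than groups that do not overlap, and the share of all genes without overlap was not counted. Expression was also used to choose the genes, so nothing is read from these counts. Scaling each library by its median ratio moved the median of all genes by 0.12 for the deletion at 1 day and by -0.17 for age, and each of the 6 kept its direction after both deletions. The median log2 difference of the 6 was -2.93 at 1 day and -1.52 at 3 weeks, against -0.11 and -0.07 for all genes tested.

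**Figure D2:**
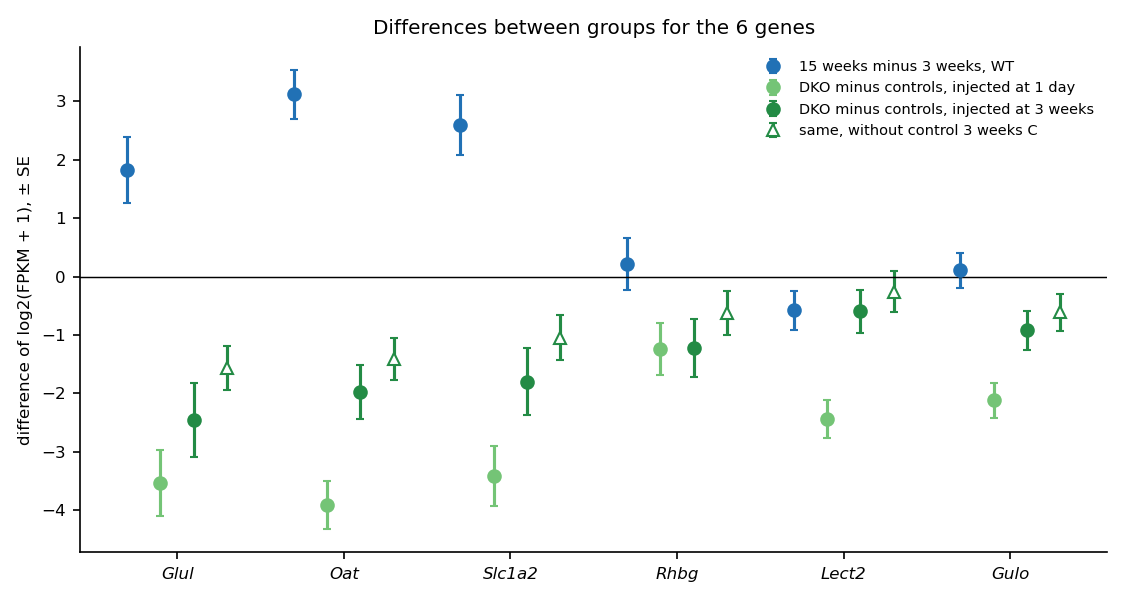
Differences of log2(FPKM + 1) with their SE for the age comparison and both deletions, and for the 3 week deletion again without control library C as open triangles. All values for the deletions lie below 0, from -3.91 for Oat at 1 day to -0.26 for Lect2 at 3 weeks without library C.

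The deletion at 1 day minus that at 3 weeks was -1.08 ± 0.85 for Glul, -1.94 ± 0.63 for Oat, -1.62 ± 0.77 for Slc1a2, -0.01 ± 0.67 for Rhbg, -1.85 ± 0.49 for Lect2 and -1.20 ± 0.46 for Gulo. Without control library C of the 3 week injection they were -1.96 ± 0.49 for Glul, -2.50 ± 0.46 for Oat and -2.38 ± 0.51 for Slc1a2. For Rhbg the sign depended on the setting, with values from -0.62 to 0.31 over 14 alternatives.

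Injection itself was compared through the 6 control libraries and the 3 uninjected WT libraries of 15 weeks. All 6 genes overlapped between them, but for Oat and Gulo the overlap rests on control library C of the 3 week injection. How many of all genes overlap there was not counted. The log2 differences ranged from -0.56 for Oat and Gulo to 0.27 for Rhbg, with SE between 0.26 and 0.49, and over all genes 0.197% were called higher and 0.134% lower. Without library C the differences were -0.85 ± 0.26 for Oat, -0.71 ± 0.24 for Gulo, -0.48 ± 0.26 for Lect2, -0.47 ± 0.29 for Slc1a2, -0.18 ± 0.28 for Glul and -0.04 ± 0.28 for Rhbg. With it Glul was at 0.26 and Slc1a2 at -0.09. In the other 5 controls Oat lay between 126 and 288 FPKM, under the 298 to 444 FPKM of uninjected mice, and Gulo between 101 and 156 FPKM, under 184 to 267 FPKM.

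Among the 9 adult libraries without deletion, control library C of the 3 week injection was the highest for each of the 6 genes. Glul was at 606 FPKM there, 5.46-fold the median of 111 FPKM in the other 8. The ratio was 4.27 for Rhbg, 3.35 for Slc1a2, 2.39 for Oat, 1.85 for Lect2 and 1.81 for Gulo. Without it the highest of the remaining 8 was between 2.22-fold and 3.53-fold above the lowest. It is the adult library that also differs in sex by its Xist and Y gene levels, and the part of sex in its values was not tested. It was 1 of the 3 controls of the 3 week deletion, so each member's difference there is given with and without it.

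Over the 18 libraries the genes moved together in pairs. The Pearson r of log2(FPKM + 1) was 0.97 between Oat and Slc1a2 and 0.96 between Lect2 and Gulo, while it was 0.36 between Slc1a2 and Rhbg. Libraries of one condition share age and treatment, so these r describe the conditions more than the single mice. The genes most like Glul were Plbd1 (r = 0.94), Lhpp (0.92) and Cldn2 (0.91). For Oat they were Slc1a2, Ppp2r1b (0.97) and Cyp1a1 (0.96), and for Slc1a2 they included Oat and Slc22a2 (0.97). Rhbg was nearest to Ucp2 (0.90), Gm12250 (0.89) and Acot2 (0.88). Lect2 was nearest to Ube2e2 (0.96), Gulo and the xenobiotic receptor gene Nr1i3 (0.95), and Gulo to Lect2, Nr1i3 (0.95) and the Wnt inhibitor gene Notum (0.95). Without library C the r of these nearest genes lay between 0.84 and 0.97.

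Other genes of glutamine and ammonia metabolism were taken from a list, of which 27 could be tested without the 6. This list and those below were chosen with earlier results of these data known, so their counts and p-values are a description. After deletion at 1 day 8 fell and 1 rose (limma on log2(FPKM + 1), Benjamini-Hochberg over all genes), and 18 did not pass, beside 15.6% lower and 4.33% higher of all genes. Without control library C of the 1 day injection 5 of the 27 were called in place of 9. Prodh, which starts proline oxidation to glutamate, fell from 64.8 to 9.27 FPKM (-2.68 ± 0.17, adjusted p = 4.5e-07). Slc25a22, a mitochondrial glutamate carrier, fell from 66.9 to 25.2 FPKM (-1.36 ± 0.26, adjusted p = 0.0038). The aminotransferase gene Got1 fell by 1.19 ± 0.29 (adjusted p = 0.013) and the glutamate dehydrogenase gene Glud1 by 0.72 ± 0.16 (adjusted p = 0.0077). Prodh2, an enzyme of hydroxyproline oxidation named after its values were seen, was the one that rose (0.72 ± 0.14, adjusted p = 0.0045). Got1 lost its call without DKO library A (-1.01) or control library C (-1.07). The median of the 27 was -0.28 beside -0.11 for all genes. After deletion at 3 weeks 1 of the 27 fell, the neutral amino acid transporter gene Slc1a4 (-1.39 ± 0.34, adjusted p = 0.035), which lost its call without either DKO library or without control library A or C, where it ranged from -0.98 to -1.40. Its median was -0.05, beside -0.07.

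Prodh also differed between the times of injection. Its libraries gave 73.0, 58.2 and 63.2 FPKM in controls and 9.34, 9.52 and 8.94 in DKO injected at 1 day, but 74.7, 62.0 and 74.4 in controls and 59.8 and 67.7 in DKO injected at 3 weeks. The difference of the effects was -2.54 ± 0.26 (adjusted p = 0.00019) and held with each library left out. It was the only one of the 27 past the threshold there, where 5.36% of all genes were called in either direction.

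From 3 to 15 weeks 5 of the 27 rose and 4 fell, beside 24% and 9.32% of all genes. The libraries of these ages differ in sex as well. Slc38a3, a glutamine transporter gene, rose from 477 to 913 FPKM (0.95 ± 0.14, adjusted p = 0.00022). Slc1a4 (-1.62 ± 0.30, adjusted p = 0.0011), Prodh2 (-1.08 ± 0.14, adjusted p = 7.1e-05) and the alanine aminotransferase gene Gpt (-0.96 ± 0.21, adjusted p = 0.0033) fell.

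The pathway of Gulo showed lower levels after deletion at 1 day at further steps. Of 6 tested genes of ascorbate synthesis and uptake, 3 fell and none rose, beside 15.6% lower and 4.33% higher of all genes. Rgn, the gluconolactonase that acts just before Gulo, fell from 297 to 73.5 FPKM (-2.0 ± 0.24, adjusted p = 0.00011). Ugdh, which makes UDP-glucuronate, fell from 57.7 to 16.4 FPKM (-1.76 ± 0.19, adjusted p = 3.6e-05), and Akr1a1, which reduces glucuronate, from 165 to 85.6 FPKM (-0.94 ± 0.18, adjusted p = 0.0031). After deletion at 3 weeks limma called 0 of the 6, with 1 higher and 1 lower at an unadjusted p under 0.05. The effects of Ugdh and Akr1a1 differed between the injection times by -1.36 ± 0.28 (adjusted p = 0.031) and -1.22 ± 0.26 (adjusted p = 0.034), and both lost this call in 5 of the 11 fits with 1 library left out. From 3 to 15 weeks, where the libraries differ in sex as well as age, Ugdh rose from 6.16 to 56.4 FPKM (3.01 ± 0.19, adjusted p = 6.5e-08). Akr1a1 rose by 0.67 ± 0.18 (adjusted p = 0.010) and Rgn by 0.68 ± 0.24 (adjusted p = 0.044). Rgn lost its age call in each of the 6 fits with 1 library left out. Gulo itself overlapped between these ages, so its level and that of Ugdh differed in their course.

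In the list of other perivenous genes 6 of 13 fell after deletion at 1 day and none rose, beside 15.6% lower and 4.33% higher of all genes. This list, too, was chosen with earlier results of these data known. The cytochrome P450 genes Cyp2a5 (223 to 10.2 FPKM, -4.30 ± 0.34, adjusted p = 3.0e-06), Cyp2e1 (2059 to 162 FPKM, -3.74 ± 0.35, adjusted p = 1.0e-05) and Cyp1a2 (-2.31 ± 0.27, adjusted p = 7.6e-05) and the receptor gene Nr1i3 (-3.48 ± 0.35, adjusted p = 2.0e-05) were the 4 with the largest changes. After deletion at 3 weeks 4 of 13 fell, beside 4.34% of all genes. They were Cyp2a5 (-2.08 ± 0.38, adjusted p = 0.0099), the Wnt feedback gene Rnf43 (-1.29 ± 0.34, adjusted p = 0.044), Cyp1a2 (-1.21 ± 0.30, adjusted p = 0.037) and the R-spondin receptor gene Lgr5 (-1.18 ± 0.30, adjusted p = 0.038). None of these 4 calls held with each library left out. Without DKO library A or B of the 3 week injection all 4 were lost, with Cyp2a5 at -1.95 and -2.20. The list median was -0.81 at 1 day and -1.18 at 3 weeks, with control library C of the 3 week injection included. Without that library the differences at 3 weeks were -1.77 for Cyp2a5, -0.92 for Rnf43, -1.15 for Cyp1a2 and -0.77 for Lgr5. For Cyp2e1 the difference of the effects between injection times was -3.33 ± 0.52 (adjusted p = 0.0080). Nr1i3 (-2.33 ± 0.52, adjusted p = 0.035) and Cyp2a5 (-2.22 ± 0.51, adjusted p = 0.037) also differed, with the call lost in 6 and 7 of 11 fits with 1 library left out, and Cyp2e1 lost it in the fit without DKO library B of the 3 week injection.

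Of 13 genes of the periportal list 2 rose after deletion at 1 day, the adhesion gene Cdh1 (29.8 to 67.4 FPKM, 1.15 ± 0.22, adjusted p = 0.0040) and the lipid droplet enzyme gene Hsd17b13 (0.72 ± 0.19, adjusted p = 0.020), and limma called 0 as lower, with 2 lower at an unadjusted p under 0.05. Over all genes 4.33% were higher and 15.6% lower at 1 day. After deletion at 3 weeks 1 rose, Hsd17b13 (0.82 ± 0.21, adjusted p = 0.044), beside 0.905% higher and 4.34% lower of all genes. Hsd17b13 lost its call at 1 day in 4 of 6 and at 3 weeks in 5 of 5 fits with 1 library left out. From 3 to 15 weeks the periportal cytochrome P450 gene Cyp2f2 rose by 1.64 ± 0.28 (adjusted p = 0.00052), while the urea cycle gene Asl fell by 1.07 ± 0.18 (adjusted p = 0.00052) and Hsd17b13 by 0.65 ± 0.19 (adjusted p = 0.019). Of all genes 24% were called higher and 9.32% lower with age. In the perivenous list 3 of 13 genes rose between these ages, which also differ in sex, a share near that of all genes. They were Cyp1a2 (1.65 ± 0.27, adjusted p = 0.00039), Cyp27a1 (1.28 ± 0.15, adjusted p = 2.9e-05) and Cyp2a5 (1.21 ± 0.34, adjusted p = 0.015). The call of Cyp2a5 was lost in 3 of 6 fits with 1 library left out, where it went down to 1.00. Between injected and uninjected controls limma called 0 genes in each of the 4 lists, beside 0.197% higher and 0.134% lower of all genes. At an unadjusted p under 0.05 there were 3 higher and 3 lower in the glutamine list, 0 in the ascorbate list, 3 lower in the perivenous list and 5 higher in the periportal list.

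Methylation around the genes was read in windows of the gene and 5 kb on each side. WGBS gives 1 value per 200-base tile and library, with no coverage in the table, so the depth of a value is unknown and single libraries allow no test. Over 1056 tiles in the 6 windows 21 lost at least 35 points from newborn to adult, 1.99% against 1.63% of all 8049849 autosomal tiles, so loss was about as frequent here as in the genome. Oat held 8 of 114 tiles, Slc1a2 7 of 553, Glul 2 of 88, Lect2 2 of 68 and Gulo 2 of 136. Rhbg held 0 of 97 in its window, which leaves out part of its longer annotated span, and its largest fall was 29.2 points. The falls nearest to the limit were 35 inside and 34.6 outside for Slc1a2, and for Oat 40.4 inside and 34.5 outside. Gains of at least 35 points were seen in 2 tiles of Slc1a2 and 1 of Rhbg.

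These 21 tiles were chosen by a low adult WT value beside newborn, which by itself favours higher values in another library. In them the DKO library remained high. It was at least 35 points above the adult WT library in 17, where the share over all lost tiles in the genome was 70.6%. The tile behind Glul whose sequence is given above (chr1:155757001-155757200) was at 88.4% in newborn, 24.5% in adult WT and 86.0% in DKO. Its neighbour was at 71.4%, 24.8% and 82.8%. In Oat the intron tile 4880 bases from the start was at 65.3%, 5.97% and 74.4%, and a tile 1720 bases upstream at 73.8%, 16.1% and 80.0%. In Slc1a2 the losses formed clusters far inside the gene. The tile 98761 bases from the start was at 87.9%, 4.17% and 77.4%, and that at 104561 bases was at 74.6%, 2.33% and 79.0%. Upstream of Lect2 the values were 60.6%, 20.2% and 71.8%, and behind Gulo 79.0%, 2.15% and 82.1%. The 4 tiles in which the DKO was less than 35 points above adult WT belonged to Oat and Slc1a2.

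**Figure D3:**
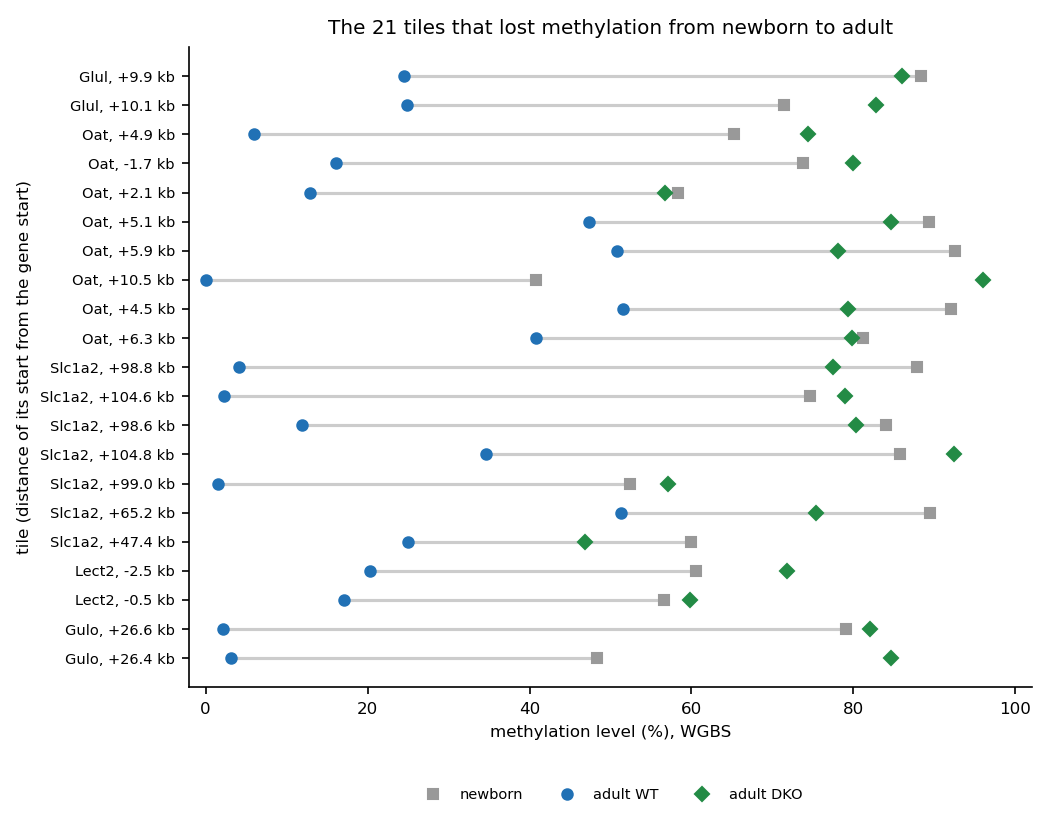
WGBS methylation of the 21 tiles that lost at least 35 points, with newborn as squares, adult WT as circles and adult DKO as diamonds, and each tile named by its distance from the gene start. The DKO diamonds lie right of the adult WT circles in each of the 21 tiles, between 46.9% and 96.0%. The tiles were chosen by a low adult WT value, which favours this order.

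Some tiles were higher in the DKO library than in both other libraries, which was looked at after the values had been seen. With a limit of 35 points Gulo held 7 such tiles of 136 (5.15%), Glul and Lect2 2 each, Oat 1, and Slc1a2 and Rhbg 0, against 0.249% of all tiles. The intron tiles of Gulo near the stretch given above were at 28.7%, 15.0% and 80.7%, at 2.94%, 0% and 43.3% and at 1.52%, 0% and 45.2% in newborn, adult WT and DKO. They were thus low in newborn already and differed from the 21 tiles in that.

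RRBS reads methylation per tile of 100 bases in single mice and was fitted over 2 WT mice of 3 weeks, 3 controls and 2 DKO injected at 1 day, and 3 controls and 2 DKO injected at 3 weeks. Coverage per tile is not in the table. The RRBS columns name animals by number, and their condition rests on the match of that number with the expression table. Of 213 tiles in the 6 windows 93 had a value in all 12 mice. After deletion at 1 day 7 were higher (limma on percent, adjusted over 379417 tiles, of which 2.46% were higher) and 0 lower, and 0 of the 93 were lower at an unadjusted p under 0.05. Of the 7, 5 lay in the intron and exon stretch of Gulo, 1 in an intron of Glul and 1 in front of the Rhbg start of the expression table. After deletion at 3 weeks 1 was higher, where 0.666% of all tiles were.

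Among the tiles called in the fit over all 12 mice, the Gulo tile at chr14:66623701-66623800 showed the largest rise. It was at 0.658% and 0% in WT of 3 weeks, at 1.32%, 0% and 0% in controls injected at 1 day and at 0%, 2.80% and 0% in controls injected at 3 weeks. DKO injected at 1 day had 71.0% and 66.4%, 68.3 ± 3.8 points more (SE, adjusted p = 4.7e-05). DKO injected at 3 weeks had 50.7% and 35.7%, 42.3 ± 3.8 points more (adjusted p = 0.0038). The groups were far apart at both times. The next tile, chr14:66623801-66623900, had 48.8% and 55.7% in DKO injected at 1 day and 12.8% and 6.49% in DKO injected at 3 weeks, with 1.85% or less in all WT mice and controls. Its rise was 51.9 ± 2.2 points at 1 day (adjusted p = 1.2e-05) and 9.14 ± 2.25 at 3 weeks (adjusted p = 0.18). The difference of the rises was 42.8 ± 3.2 points (adjusted p = 0.00078), the only such call among the 93 tiles, with 0.46% of all tiles called higher. In the third, chr14:66623901-66624000, the DKO injected at 1 day had 74.6% and 51.5% and the rise was 62.7 ± 6.7 points (adjusted p = 0.0016). The remaining Gulo tiles called at 1 day were 66624101 (41.2 ± 6.0 points, adjusted p = 0.0088) and 66624701 (25.6 ± 4.3 points, adjusted p = 0.017). The latter covers a coding exon and lay between 51.8% and 87.6% in the mice without deletion, and it lost its call in 4 of 5 fits with 1 mouse left out.

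The tiles called in Glul and Rhbg moved by less. In Glul the intron tile chr1:155748701-155748800, 1642 bases from the start, had 13.1% and 14.8% in DKO injected at 1 day and 0% in all 6 controls (13.9 ± 1.7 points, adjusted p = 0.0030). The tile 95 bases in front of the Rhbg start of the expression table, chr3:88058701-88058800, had 8.16% and 6.83% against 1.90%, 0% and 0% (6.86 ± 0.70 points, adjusted p = 0.0013). It lies inside the longer annotated span of Rhbg. Behind Glul, in the first of the tiles that lost methylation in WGBS, RRBS gave 22.7%, 69.0% and 26.1% in controls injected at 1 day and 21.1%, 40.0% and 50.0% in those injected at 3 weeks. The DKO gave 90.0% and 96.8%, and 85.9% and 85.3%. All 4 DKO mice were thus above all 6 controls. The mean difference over both times was 51.3 points (two-sided exact permutation test within each time, p = 0.02, with 0.01 the smallest possible). In the fit over all tiles it was not called (54.1 ± 14.6 points at 1 day, adjusted p = 0.15). The neighbouring tile chr1:155757201-155757300 lacked a value in 1 control. It had 95.8% and 100% in DKO injected at 1 day but 16.1% and 29.5% in DKO injected at 3 weeks, against 0% to 33.3% in controls. When tiles with values in at least 2 mice per group were tested, its rise at 1 day was 85.5 ± 9.6 points (adjusted p = 0.0044). The lost WGBS tiles of Oat, Slc1a2, Lect2 and Gulo held no RRBS tile with a value in all 12 mice.

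**Figure D4:**
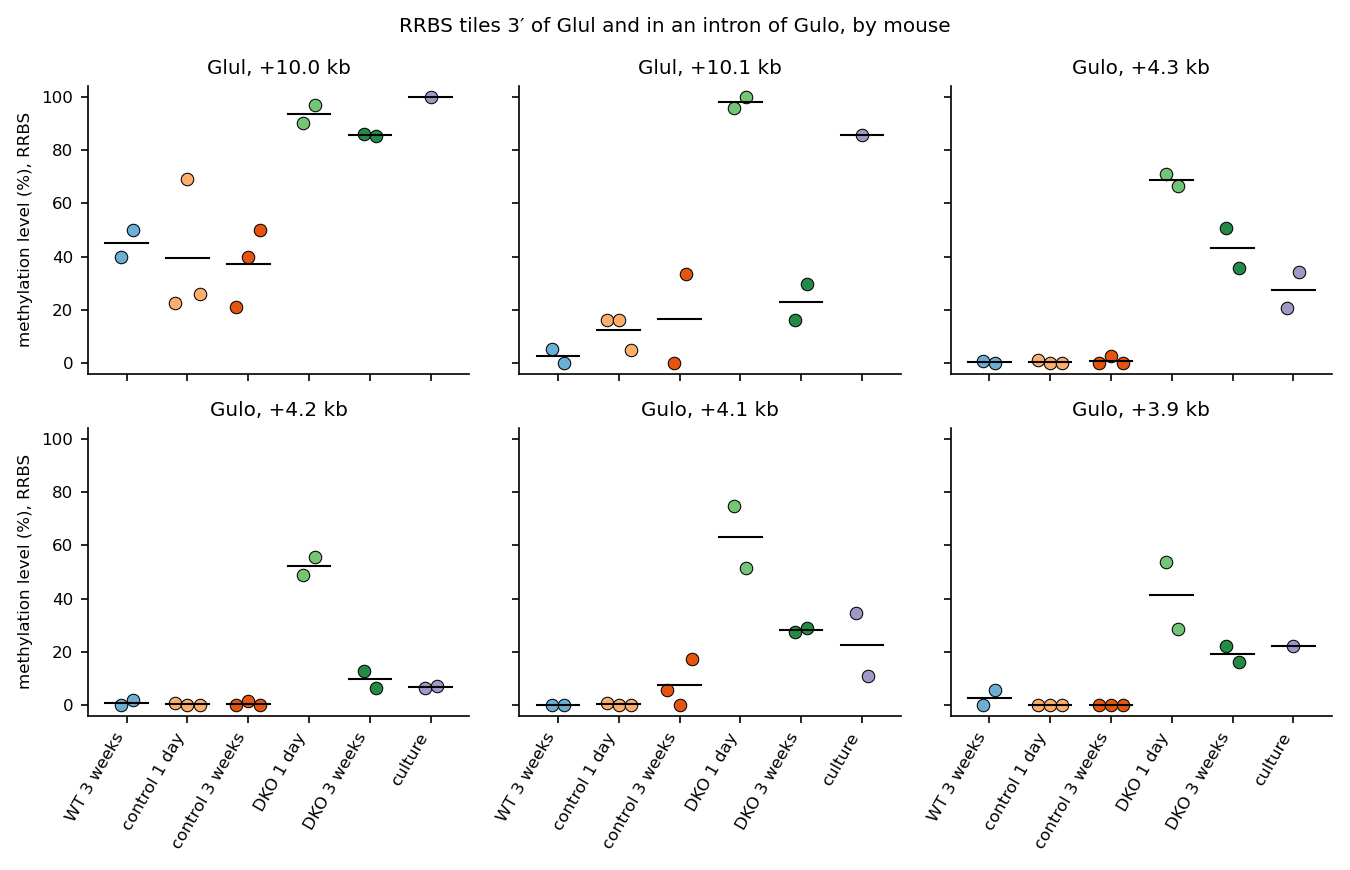
RRBS methylation by mouse in 2 tiles behind Glul and 4 tiles in an intron of Gulo, named by distance from the gene start, with lines at the means. In the 4 Gulo tiles the WT and control mice lie between 0% and 17.2% and the DKO injected at 1 day between 28.6% and 74.6%. Hepatocytes from culture are shown as a further group.

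Between WT mice of 3 weeks and the controls limma called 0 of the 93 tiles in either direction, with 2 higher and 2 lower at an unadjusted p under 0.05, and 0.405% of all tiles were lower. By animal number, both WT mice of 3 weeks and control C of the 3 week injection are among those rich in Xist RNA. Age and sex therefore cannot be told apart in this RRBS comparison either.

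Peaks were called by the authors in each library. All 4 ATAC-Seq libraries had a peak at the start of Glul, Oat, Rhbg, Lect2 and Gulo. For Slc1a2 the peak shared by all 4 lay 86712 bases into the gene, within Gm13872. In the Gulo intron a peak at chr14:66623786-66623955 was in both WT lists (6.56 and 3.78 normalized tags) and in neither DKO list. It overlaps the 3 RRBS tiles of the Gulo stretch whose sequence is given above. Slc1a2 had 1 peak in both WT lists only, 53017 bases from the start, and peaks in both DKO lists only at 23692 and 57219 bases. These had between 2.98 and 4.93 tags and were thus weak. The Gulo intron peak was as weak in WT library B, at 3.78 tags. HNF6 lists were very unequal, with 4387 and 9355 peaks in WT and 9305 and 34665 in DKO. One of WT library B, chr14:66623851-66624009, lay over the Gulo intron peak (6.73 tags), and it was absent from the other 3 lists.

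Histone peaks came from 1 library per group. Behind Gulo the WT list had an H3K27ac peak of 16092 bases with 750 tags (46.6 per kb), which covered both lost tiles and reached beyond the window. The DKO list had 3 peaks along it, of 5488 bases with 485 tags (88.4 per kb), of 3872 bases with 58.1 tags (15.0 per kb) and, nearest to Gulo, of 500 bases with 6.53 tags (13.1 per kb). The mark was thus present in both lists, in shorter pieces in DKO. Genes more than 5 kb from Gulo were not looked up, so which gene this stretch and the lost tiles belong to was not tested. H3K4me1 had a peak of 11158 bases with 361 tags (32.4 per kb) in WT, which ended before the lost tiles, and in DKO peaks of 4327 bases with 136 tags (31.3 per kb) and 4276 bases with 88.5 tags (20.7 per kb). In the Gulo intron the stretch was in an H3K4me1 peak in both lists, while an H3K27ac peak of 762 bases with 12.0 tags lay on it in DKO only. At the start of Glul the H3K27ac peak had 250 tags over 3882 bases in WT and 459 tags over 4482 bases in DKO. Around the start of Oat H3K4me1 covered 6626 bases with 136 tags (20.4 per kb) in DKO and 671 and 500 bases with 10.1 and 5.03 tags in WT. H3K27ac covered 7670 bases there in WT and 1958 and 3317 bases in DKO. At the start of Glul H3K4me1 had a peak of 2750 bases with 55.2 tags in DKO, and no WT peak of this mark lay over the start.

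The 21 lost tiles were set against the peaks. Of them 8 lay in H3K4me1 peaks of WT and 14 in those of DKO, where 54.6% and 50.8% of all lost tiles in the genome did. H3K27ac peaks held 10 in WT and 8 in DKO, beside 34.1% and 31.6% of all lost tiles. ATAC-Seq peaks held 0 in both WT libraries, beside 5.05% and 6.87% of all lost tiles, and 2 and 0 in the DKO libraries, beside 3.91% and 4.88%. The Slc1a2 tiles at 98561 to 104761 bases lay in H3K4me1 peaks in both groups, with 51.2 and 45.9 tags in WT and 35.4 and 25.2 in DKO. The 5hmC list of WT hepatocytes had 27 peaks in the 6 windows, of which 15 were in Slc1a2, the longest gene, and they held 2 of the 21 tiles (9.52%), beside 19.8% of all lost tiles and 9.56% of all tiles. By the paper the 5hmC mice were younger than the adult WGBS mouse by which the lost tiles were defined.

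**Figure D5:**
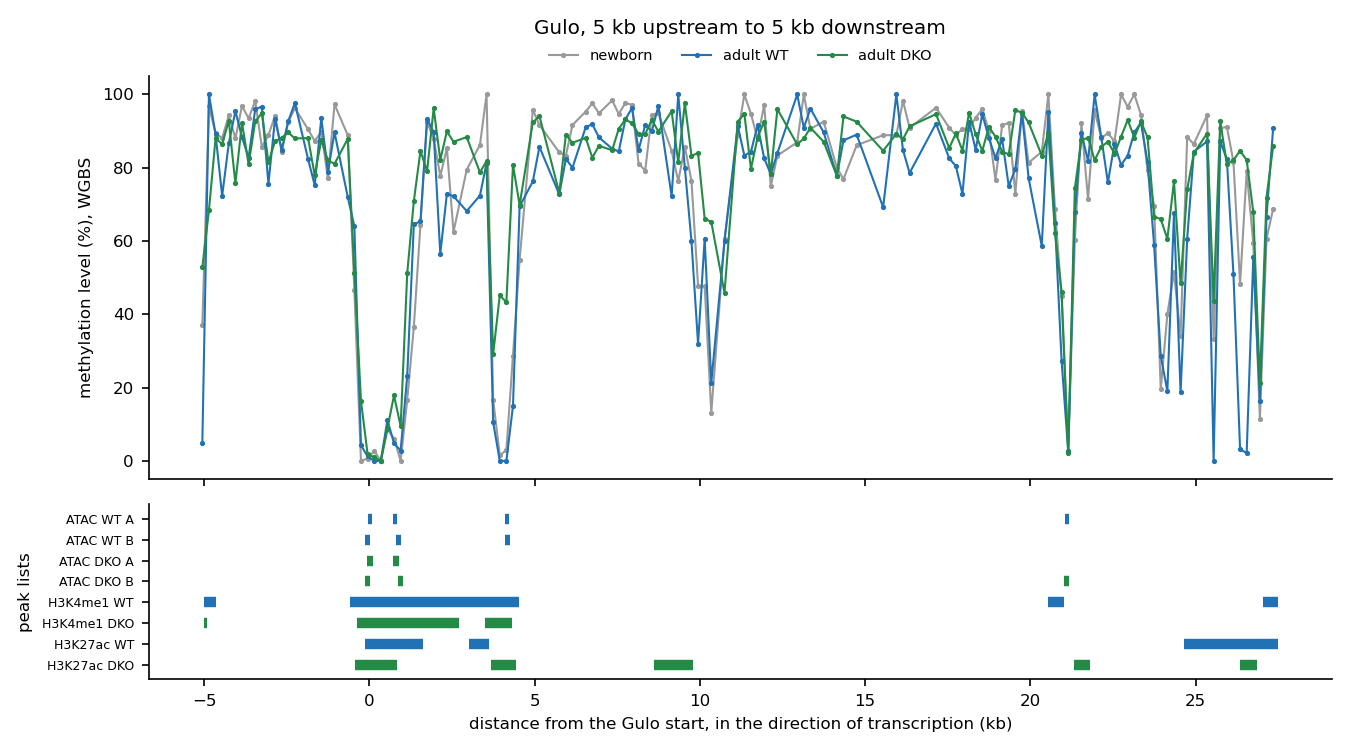
WGBS methylation of the newborn, adult WT and adult DKO libraries along Gulo, by distance from its start in the direction of transcription, above bars for the ATAC-Seq and histone peaks of each list. The DKO line lies above both others near 4177 bases, where ATAC-Seq peaks are in the WT lists only. The adult WT line alone is at 2.15% and 3.13% near 26646 bases, within the H3K27ac peak of WT, which reaches further downstream than shown.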

How the data were processed

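RNA-Seq came from sorted, CD45-negative hepatocytes with an unstranded kit. The authors aligned reads with TopHat2 and deposited gene FPKM values from Cufflinks, so read depth is unknown. For RRBS and WGBS the authors trimmed reads with Trim Galore 0.3.3, aligned them with BSMAP 2.74 and deposited the methylated fraction per tile of 100 bases (RRBS) or 200 bases (WGBS), without coverage. It was multiplied to percent here. RRBS columns of the 12 mice carry animal numbers only, and their condition was taken from the expression column with the same number, so it rests on that match. For ATAC-Seq and ChIP-Seq the authors used cutadapt 1.15, Bowtie2 2.2.4 and HOMER, and the deposited peak lists give signal as normalized tags with a score, per library. The build was mm9.

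The 6 genes, the 4 gene lists and the tests were chosen with earlier results of these data known. Differences were fitted with limma 3.58.1 in R 4.3.3 on log2(FPKM + 1), over 18 libraries in 1 fit, for the 11166 genes whose mean reached 1 FPKM under some condition, with Benjamini-Hochberg adjustment and a threshold of 0.05. RRBS was fitted on percent over 379417 autosomal tiles with a value in all 12 mice. Both fits were tested on simulated data. Peaks were assigned to the gene and 5 kb on each side by an overlap of at least 1 base, and WGBS tiles were compared at a minimum of 35 points. In each list and comparison up to 4 called genes with the largest changes were named, and up to 3 tiles per gene. For each of the 6 genes the 3 genes with the highest r were named, except 1 that is not reported here. A further 49 columns of single samples were not used, because their names could not be tied to a sample or group of the labels. Other pseudocounts, filters, scalings, windows and thresholds were tried, and each library was left out in turn.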

Additional observations from a re-analysis of the deposited data

Results flagged for a closer look

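The effect of the deletion was called as different between injection at 1 day and at 3 weeks for 6 genes of the lists (limma interaction term on log2(FPKM + 1), adjusted p given for each in the text above). Only Prodh kept this call in each of the 11 fits with 1 library left out. Cyp2e1 lost it in 1, Ugdh and Akr1a1 in 5, Nr1i3 in 6 and Cyp2a5 in 7 of them. The difference of the effects was -2.54 for Prodh, -1.36 for Ugdh, -1.22 for Akr1a1, -3.33 for Cyp2e1, -2.33 for Nr1i3 and -2.22 for Cyp2a5, and each gene was lower after the deletion at 1 day. The Gulo RRBS tile 66623801 rose by 42.8 points more after deletion at 1 day than at 3 weeks (limma on percent).

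Hepatocytes kept in culture were grown from unsorted liver cells of newborn mice and belong to no comparison of the report. The WT and control mice set beside them were older, at 3 and 15 weeks. Methylation in culture was above the levels of these mice in 3 Gulo tiles, of which 2 are intronic. Tile 66623701 was at 20.8% and 34.0% in the 2 cultures, against 2.80% or less in WT and control mice. Tile 66623801 was at 6.38% and 7.20%, against 1.85% or less. Tile 66624701 was at 93.2% and 92.8%, against 51.8% to 87.6%. In the newborn WGBS library the tiles of 200 bases over these 3 places were at 28.7%, 2.94% and 86.2%. A change in culture therefore cannot be told apart from the age of the mice. Other tiles there overlapped with the WT and control mice or had a value in 1 culture only. Tile 66623901 was at 34.5% and 10.8%, against up to 17.2%, and tile 66623601 at 78.6% in the 1 culture with a value, within the 45.5% to 80.0% of WT and control mice. These differences were not tested.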

How the results depend on the processing

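No paired analysis was possible because the columns used carry no replicate numbers shared with the labels between groups. No result reversed past its threshold. Of 324 values for the expression differences of the 6 genes 4 moved by more than the spread, 81 of 385 values for other named genes lost their call, and 4 of 58 values for RRBS tiles did. For all other changes below the cause was not tested. With no filter on low values the deletion at 3 weeks called 370 genes in place of 586, and the difference between injection times 128 in place of 599 (chosen after seeing the data). With libraries scaled by the median ratio these counts were 1336 (665 higher and 671 lower, against 101 and 485) and 2250, and injected against uninjected controls gave 103 (67 higher and 36 lower) in place of 37 (22 and 15). With only the groups compared in the fit, the deletion at 3 weeks called 56. On the logit scale 4 tiles of the 6 genes were called for the deletion at 3 weeks in place of 1, and 1176 tiles in all for injection time in place of 1933 (chosen after seeing the data). WGBS losses numbered 49 at 25 points and 9 at 50 points, against 21. The gene alone left no RRBS tile for a window mean, and with 10 kb around Gulo its mean rose by 69.6 points in DKO (2 tiles). Among the better scored peaks (above the median score) there were 15 of 27 peaks for 5hmC, 4 of 13 for ATAC DKO A, 9 of 15 for ATAC DKO B, 6 of 15 for ATAC WT B, 6 of 11 and 9 of 15 for H3K27ac in DKO and WT, 8 of 13 and 7 of 20 for H3K4me1 in DKO and WT, and 0 of 2 and 0 of 3 for HNF6 DKO B and WT B. Genes alone held 13 H3K4me1 peaks of WT.

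With each library left out the count of called genes ranged from 876 (without control 1 day C) to 2308 for the deletion at 1 day, from 53 (without DKO 3 weeks B) to 414 at 3 weeks, from 30 (without DKO 3 weeks B) to 1748 for injection time, from 2632 to 3694 for age and from 2 to 101 for injected against uninjected controls. RRBS calls ranged from 7309 to 15046 tiles at 1 day and from 1671 to 7804 at 3 weeks, and those of the 6 genes from 6 to 11 and from 1 to 6. Leaving out 1 DKO library of the 3 week injection leaves 1, which is assumed to vary like the other groups. Single WGBS and histone libraries, and the unknown depth of single tiles and of the RNA-Seq libraries, limit these values.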

Other observations

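In other cells the Gulo intron was methylated. Tile 66623701 was at 53.8% in the fat sample and 90.9% in the neutrophil sample, and tile 66623901 at 66.0% and 87.9%, each from 1 sample. In the 2 hepatocyte samples with insulin receptor knockout tile 66623701 was at 0% in both. The first tile behind Glul was at 8.33% in fat, 36.4% in neutrophils, 46.4% and 45.5% with insulin receptor knockout and 100% in the 1 culture with a value.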
